A study of Mus musculus with 4 samples.

Results

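Slc22a3, Slc22a5, Slc22a7, Slc22a23, Slc22a27, Slc22a28 and Slc22a30 are 7 mouse genes of the Slc22 family. They were taken by symbol from the 32285 gene symbols of 4 single-nucleus RNA libraries of liver, which hold 25 Slc22a symbols in all. Nuclei were isolated from 50 mg of flash frozen liver combined from 8 mice and run with 10x Genomics v3.1 chemistry. After a fast of 16 to 24 h, 2 such libraries were made (fasted 1 and 2), and 2 were made from fed control mice (fed 1 and 2). Genotype, strain, sex, age and time of day are not stated, and no agent is named for either group. It is also unstated whether both libraries of a group share mice, so p-values measure the spread between preparations, which may be technical.

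Slc22 proteins are membrane transporters that move organic cations, zwitterions such as carnitine, or organic anions across the plasma membrane. In liver and kidney they take up drugs, hormones and metabolites from blood. Hepatocytes also differ along the lobule: blood flows from the portal vein to the central vein, and many genes are transcribed mainly near one end. Slc22a3 encodes OCT3, a transporter of organic cations and monoamines. Slc22a5 encodes OCTN2, which imports carnitine, the carrier that brings long-chain fatty acids into mitochondria. Slc22a7 encodes OAT2, an organic anion transporter. Slc22a23 encodes a family member without an established substrate. Slc22a27, Slc22a28 and Slc22a30 belong to a group of organic anion transporter genes that expanded in rodents.

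Nuclei were grouped into cell types from clusters made without any Slc22a gene, and levels are counts per 1000000 of a type's summed UMIs (unique molecular identifiers, 1 per captured transcript), written CPM. Hepatocyte nuclei numbered 5481 and 4611 in fasted 1 and 2 and 5120 and 3849 in fed 1 and 2, and their clusters each expressed 8 to 11 of the 11 hepatocyte markers. Summed hepatocyte UMIs ranged from 6813484 to 21343149. Fed 2 stood apart: a hepatocyte had a median of 1273 UMIs, and in fasted 1, fasted 2 and fed 1 it had 2919, 3239 and 2544.5. Gm42418, which collects ribosomal RNA reads, took 4.61% of the UMIs of fed 2 and 0.204% to 1.01% in the other 3. Cell type names stand for clusters that resemble these types by marker genes. Most hepatocyte clusters came mainly from 1 library. Pairs of libraries shared 12 to 42 barcodes. Results are given without a library where leaving it out changed a member's call.

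All 7 genes lie on the minus strand, on 4 chromosomes (GENCODE M21, GRCm38). Slc22a3 is at chr17:12418960-12507704, Slc22a7 at chr17:46432183-46438457, Slc22a5 at chr11:53864542-53891660 and Slc22a23 at chr13:34179158-34345182. The other 3 lie close together on chromosome 19, Slc22a27 at chr19:7864388-7966027, Slc22a28 at chr19:8062209-8131982 and Slc22a30 at chr19:8335371-8405111, with Slc22a29 between the last of these and Slc22a28. The longest reading frames of Slc22a28 and Slc22a30 were 98.8% identical, and that of Slc22a27 was 87.1% and 87.2% identical to them. Of the 50-base words in Slc22a28 transcripts, 53.3% also occur in Slc22a30, and 31.0% of those of Slc22a30 occur in Slc22a28. Slc22a27 shared 25.3% of its words with Slc22a29, and Slc22a5 shared 26.1% with Slc22a21. Reads from shared stretches can be lost or assigned to the other copy, so the levels of these 4 genes are uncertain to that extent. Slc22a3, Slc22a7 and Slc22a23 shared none with another Slc22a gene. Slc22a3 overlaps Plg on the opposite strand by 426 bases where both genes end, and an antisense gene lies within it. No source states how strand was used in counting, so reads of these overlaps cannot be assigned with certainty.

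The promoters of the chromosome 19 neighbours are shown because Slc22a28 and Slc22a30 are near copies there as well, while Slc22a27 differs from both. Whether these sequences bear on the levels was not tested. Each is the 250 bases before the RefSeq start (GRCm38.p6, minus strand, written 5′ to 3′), at chr19:7966028-7966277 for Slc22a27, chr19:8131983-8132232 for Slc22a28 and chr19:8405106-8405355 for Slc22a30. The windows of Slc22a28 and Slc22a30 were 93.0% identical in an alignment, and that of Slc22a27 was 44.0% and 44.8% identical to them. Capitals mark a match to AGGTCA on the opposite strand.
Slc22a27: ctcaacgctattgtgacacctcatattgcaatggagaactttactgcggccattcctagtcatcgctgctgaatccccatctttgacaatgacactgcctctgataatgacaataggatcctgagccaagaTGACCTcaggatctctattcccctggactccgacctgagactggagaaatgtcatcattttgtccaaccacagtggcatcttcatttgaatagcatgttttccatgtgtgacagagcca
Slc22a28: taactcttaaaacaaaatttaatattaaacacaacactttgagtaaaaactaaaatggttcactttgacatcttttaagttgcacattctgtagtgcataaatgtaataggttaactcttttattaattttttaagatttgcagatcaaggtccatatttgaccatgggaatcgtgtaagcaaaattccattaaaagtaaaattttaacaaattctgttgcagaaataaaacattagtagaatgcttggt
Slc22a30: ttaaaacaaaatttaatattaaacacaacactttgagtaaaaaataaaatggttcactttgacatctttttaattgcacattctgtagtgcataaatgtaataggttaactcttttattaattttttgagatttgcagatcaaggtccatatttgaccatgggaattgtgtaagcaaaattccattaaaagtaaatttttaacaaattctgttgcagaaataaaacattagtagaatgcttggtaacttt
Of 7 members, 6 had a promoter entry. Searched on both strands of these 250-base windows were AGGTCA, a half-site of nuclear receptors, GTTAAT, a half-site of HNF1, TTCNNNGAA, bound by STAT5, and CAAAGTCCA, bound by HNF4. The single match was the AGGTCA of Slc22a27, 119 bases before the start. Over 32851 promoter windows of the same length, 14.0% held AGGTCA, 6.43% GTTAAT, 7.02% TTCNNNGAA and 0.384% CAAAGTCCA.

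The first comparison asks how hepatocyte RNA of these transporters differs between fasted and fed mice. Slc22a5 and Slc22a3 were higher in each fasted library than in either fed one, Slc22a7 and Slc22a28 had lower levels in both, and the groups overlapped for Slc22a23, Slc22a27 and Slc22a30. None of the 7 passed the test over all genes, edgeR's quasi-likelihood test on summed counts with Benjamini-Hochberg adjusted p under 0.05, in which 1 of 14130 genes passed (0.00708%). With an unadjusted p under 0.05 there were 4 members (Slc22a3, Slc22a5, Slc22a7 and Slc22a28) and 6.91% of all genes. By DESeq2, 2 members passed, Slc22a7 and Slc22a28, against 1.17% of all genes. Libraries did not overlap for 4 of 7 members and for 36.2% of all genes. In bulk sums like these, fewer nuclei with a transcript and less RNA per nucleus cannot be told apart.

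Slc22a5, the carnitine importer, stood at 78.4 and 83.7 CPM in fasted 1 and 2, against 24.8 and 37.3 CPM in fed 1 and 2. Both fasted libraries were close together and above both fed ones. The log2 difference was 1.35 (SE 0.37, n = 2 and 2), with an adjusted p of 0.560 by edgeR. Without fed 2 it was 1.75, with an adjusted p of 0.0325 by edgeR, in a fit in which 2.12% of all genes passed. The share of hepatocytes with a Slc22a5 UMI, after thinning each nucleus to 1000 UMIs, was 7.57% and 8.56% in fasted libraries, against 2.41% and 3.90% in fed libraries. In endothelial nuclei treated alike that share was 4.50% and 7.33% in fasted libraries, against 4.52% and 0% in fed libraries, the last value being 0 of 28 nuclei, which allows a share of up to 10.7%. Before thinning the hepatocyte shares were 21.8% and 25.9% in fasted libraries, against 7.36% and 6.002% in fed libraries, and median depths were 1273 to 3239 UMIs in hepatocytes and 750 to 888.5 UMIs in endothelial nuclei. In fed 1 the endothelial share was the larger one after thinning, so these shares do not separate hepatocytes from endothelial nuclei there. Too shallow for thinning were 169 and 66 hepatocytes in fasted libraries, against 176 and 1257 in fed libraries. Of the endothelial nuclei of fasted 1, 1754 were too shallow and 556 were counted.

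Slc22a3 stood at 35.7 and 48.5 CPM in fasted 1 and 2, against 13.6 and 19.1 CPM in fed 1 and 2. The groups did not overlap, and the log2 difference was 1.33 (SE 0.40, n = 2 and 2) with an edgeR adjusted p of 0.609. Leaving out any 1 library gave 1.05 to 1.67.

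Slc22a7 ran the other way, at 2.48 and 0.769 CPM in fasted 1 and 2, against 16.9 and 12.03 CPM in fed 1 and 2. These are 53 and 15 UMIs in fasted hepatocytes and 288 and 82 UMIs in fed ones, so the fasted levels rest on few molecules. The log2 difference was -3.18 (SE 0.66, n = 2 and 2), the most negative of the 7, with an edgeR adjusted p of 0.461 and a DESeq2 adjusted p of 2.62e-04. Without fed 1 or fed 2 the edgeR adjusted p was 5.51e-04 or 5.85e-04, at log2 differences of -2.99 and -3.35, where 5.65% and 2.12% of all genes passed. Without fasted 1 or fasted 2 the log2 difference was -4.21 or -2.60, with edgeR adjusted p of 0.422 and 0.99990.

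Slc22a28 stood at 27.1 and 9.54 CPM in fasted 1 and 2, against 134 and 54.0 CPM in fed 1 and 2. Replicates of each group differed by more than the counting error, and the groups did not overlap. The log2 difference was -2.38 (SE 0.62, n = 2 and 2), with an edgeR adjusted p of 0.552 and a DESeq2 adjusted p of 0.00715. Without fed 1 or fed 2 it was -1.67 or -2.85, with edgeR adjusted p of 0.00931 and 3.48e-04. Without fasted 1 or fasted 2 it was -3.27 or -1.83, with edgeR adjusted p of 0.422 and 0.99990.

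Slc22a30 stood at 755 and 275 CPM in fasted 1 and 2, against 1775 and 723 CPM in fed 1 and 2. Fasted 1 lay above fed 2, so the groups overlapped, and the libraries of each group lay far apart. The log2 difference was -1.30 (SE 0.59, n = 2 and 2), with an edgeR adjusted p of 0.737. It was -1.76 without fed 2, with an edgeR adjusted p of 0.0372, and ran from -2.16 to -0.60 over the libraries left out in turn.

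Slc22a28 and Slc22a30 varied together between libraries. Over all hepatocytes, their ratio was steadier between replicates of a group than either level. Within a library the ratio could change with lobule position, and its values by position are given below. Slc22a28 made up 3.47% and 3.35% of the UMIs of both genes in fasted 1 and 2 (95% exact binomial intervals 3.19 to 3.76% and 2.90 to 3.86%). In fed 1 and 2 it made up 7.02% and 6.95% (6.74 to 7.30% and 6.28 to 7.67%). The difference of the group means, fasted minus fed, was -3.58 percentage points, while replicates differed by less than their counting intervals. An exact two-sided permutation test gave p = 0.333, the smallest that 2 against 2 libraries allow. With stored zeros counted as 1, automatic doublet thresholds or nuclei of at least 1500 UMIs the difference was -3.82, -3.64 and -3.86. This ratio was chosen after both levels had been seen, and a share of shared reads assigned to the wrong copy would enter it.

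**Figure D1:**
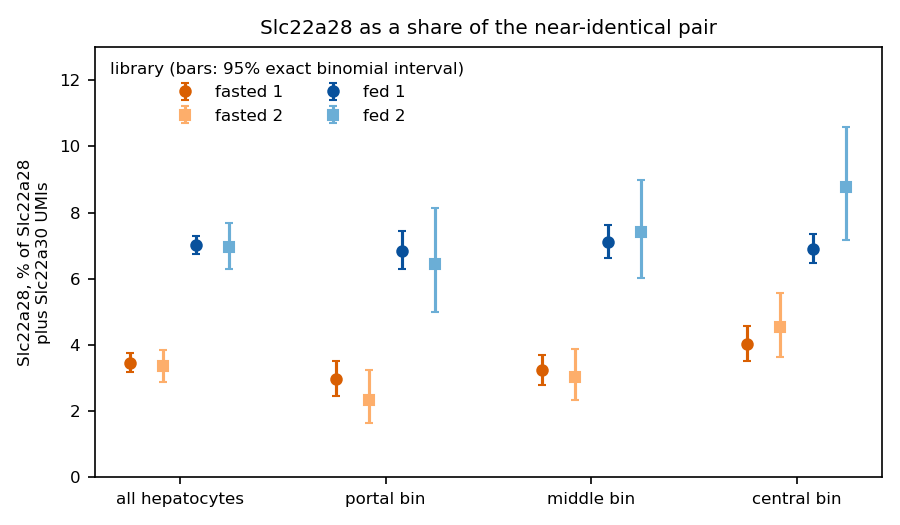
Slc22a28 UMIs as a percentage of the UMIs of Slc22a28 and Slc22a30 together (vertical axis) in all hepatocytes and in the portal, middle and central bins, fasted libraries left of fed ones, with 95% exact binomial intervals. Over all hepatocytes the fasted libraries sit at 3.47% and 3.35% and the fed ones at 7.02% and 6.95%.

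Slc22a23 stood at 344 and 346 CPM in fasted 1 and 2, against 300.4 and 579.9 CPM in fed 1 and 2. The fasted libraries lay between the fed ones. The log2 difference was -0.40 (SE 0.42, n = 2 and 2), with an edgeR adjusted p of 0.955, and turned to 0.24 without fed 2. Slc22a27 was low, at 2.30 and 1.03 CPM in fasted libraries, against 0.647 and 2.35 CPM in fed libraries, from 49, 20, 11 and 16 UMIs in fasted 1, fasted 2, fed 1 and fed 2. Its log2 difference of 0.16 (SE 0.87, n = 2 and 2; edgeR adjusted p = 0.999) turned to -0.52 without fasted 1 and to -0.60 without fed 1.

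**Figure D2:**
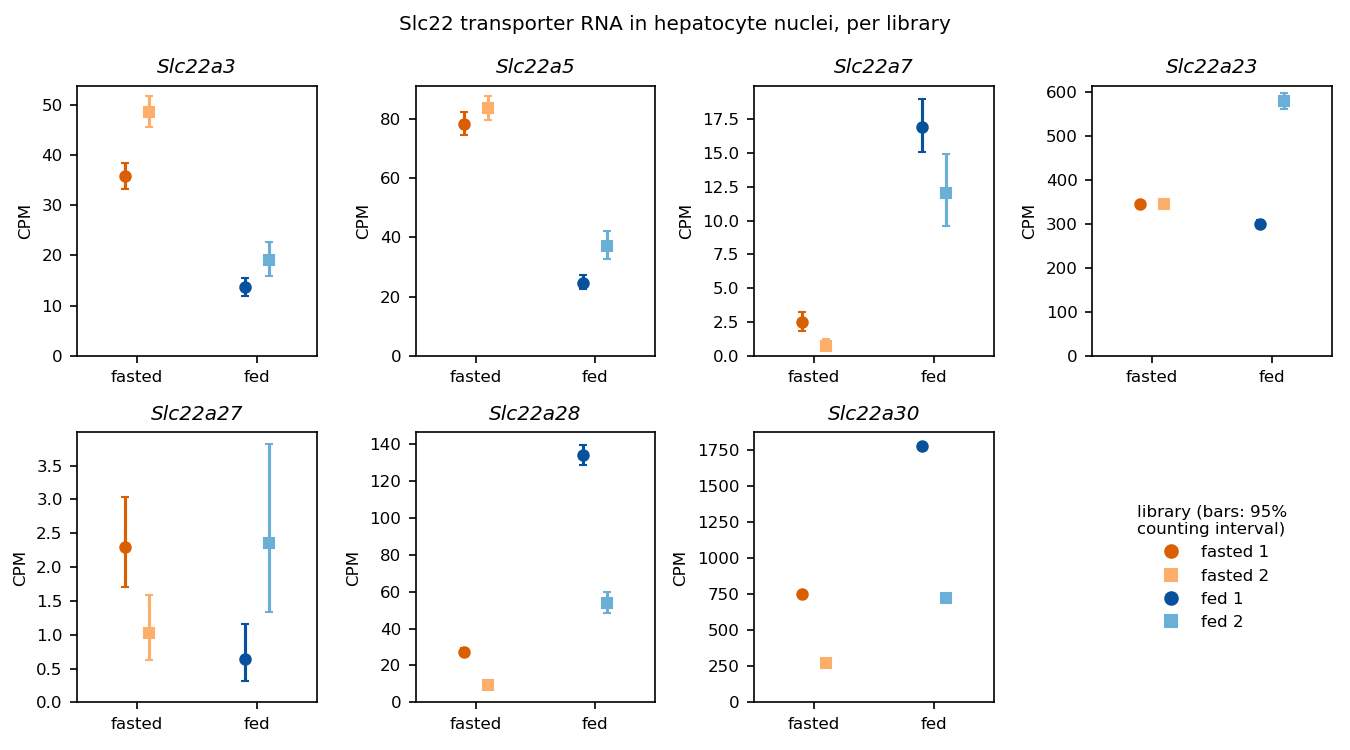
Level of each member in hepatocyte nuclei (CPM, linear axis from 0, scales differ between panels) in fasted libraries on the left and fed libraries on the right of each panel, 1 point per library with its 95% counting interval. Slc22a3 and Slc22a5 are higher in both fasted libraries, Slc22a7 and Slc22a28 lower in both, and the groups overlap for Slc22a23, Slc22a27 and Slc22a30.

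The second comparison places the transporters along the lobule. Hepatocytes were ranked in each library by a score of 8 pericentral and 12 periportal landmark genes, none of the Slc22 family, and split into portal, middle and central bins of equal size. Scores from odd and even landmarks correlated across nuclei at 0.592 to 0.628. Of the 7 members, 5 differed between the central and portal bins (edgeR with library as a block, adjusted p under 0.05), against 16.4% of 12358 genes. Slc22a3, Slc22a27, Slc22a23 and Slc22a28 were higher in the central bin, as were 8.21% of all genes, and Slc22a7 was lower there, as were 8.23%. Fed 2 counts less here, since 1574 of its 3849 hepatocytes were deep enough to be scored.

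Slc22a3 was concentrated at the central end in every library. In the central bin it stood at 89.1 and 129.9 CPM in fasted 1 and 2, against 35.7 and 51.9 CPM in fed 1 and 2. In the portal bin it stood at 1.07 and 0.359 CPM in fasted libraries, against 0.650 and 4.25 CPM in fed libraries, from 6, 2, 3 and 6 UMIs in fasted 1, fasted 2, fed 1 and fed 2. The central bin was higher in 4 of 4 libraries, and the log2 difference of central over portal was 6.34 (SE 0.34, 4 libraries; edgeR adjusted p = 3.35e-06), and 5.56 without fasted 2. Ratios ran from 12.2 in fed 2 (95% exact interval 5.38 to 34.3) to 361 in fasted 2 (99.7 to 2989). With 10 bins, the most central one held 216 and 360.5 CPM in fasted libraries, against 91.8 and 127 CPM in fed libraries. The next bin toward the portal vein held 74.2 and 99.3 CPM in fasted libraries, against 21.3 and 41.6 CPM in fed libraries.

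Counted per nucleus after thinning to 1000 UMIs, Slc22a3 was seen in 7.74% and 11.4% of central hepatocytes in fasted libraries, against 2.97% and 4.75% in fed ones. In portal hepatocytes it was seen in 0.0565% and 0.132% in fasted libraries, against 0.0607% and 0.579% in fed libraries. In endothelial nuclei the share was 0.540% and 1.47% in fasted libraries, against 0% in both fed libraries. The fed values are 0 of 553 and 0 of 28 nuclei, which allow up to 0.542% and 10.7%. The fasted 1 value is 3 of 556 nuclei (95% exact interval 0.111% to 1.57%). Endothelial nuclei had median depths of 750 to 888.5 UMIs, and those under 1000 UMIs were left out, 1754 of them in fasted 1. The portal share was below the endothelial share in both fasted libraries, from 1 and 2 portal nuclei, and whether it is background was not tested. The intervals of the 2 shares overlapped in fasted 1, where that of the portal share ran from 0.00143% to 0.314%. In fed 1 the portal share was below the limit of 0.542%, and the 28 endothelial nuclei of fed 2 are too few for this comparison. Before thinning the central share in fasted 1 was 18.4%. Plg, the neighbour that overlaps the end of Slc22a3, did not pass, with a position log2 difference of -0.05 (edgeR adjusted p = 0.644).

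Slc22a27, low as it was, had 38, 17, 6 and 8 UMIs in the central bins of fasted 1, fasted 2, fed 1 and fed 2, and 1 UMI in each of the 4 portal bins. Its log2 difference was 3.60 (SE 0.59, 4 libraries), with an edgeR adjusted p of 1.18e-04, and 2.95 without fasted 1. The ratio in fasted 1 was 28.7 (95% exact interval 4.84 to 1161) and that in fasted 2 was 14.4 (2.26 to 602). Ratios in fed 1 and 2 were 4.60 (0.558 to 211) and 7.43 (0.996 to 330), and both intervals include equal levels.

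Slc22a23 was lowest in the portal, intermediate in the middle and highest in the central bin of all 4 libraries. Its central bin held 449.8 and 454 CPM in fasted libraries, against 389 and 724 CPM in fed libraries. The portal bin held 244 and 255 CPM in fasted libraries, against 216 and 517 CPM in fed libraries. The ratio was 1.84, 1.78 and 1.80 in fasted 1, fasted 2 and fed 1, and 1.40 in fed 2 (95% exact interval 1.27 to 1.54). The log2 difference was 0.76 (SE 0.07, 4 libraries), with an edgeR adjusted p of 2.76e-08.

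Slc22a28 was 31.4 and 13.1 CPM in the central bin of fasted libraries and 148 and 64.4 CPM in that of fed ones. The portal bin held 22.6 and 6.47 CPM in fasted libraries, against 114 and 46.0 CPM in fed libraries. The central bin was higher in 4 of 4 libraries, with a log2 difference of 0.49 (SE 0.10; edgeR adjusted p = 0.00140). Slc22a30 did not pass, at a log2 difference of 0.10 (SE 0.07, 4 libraries; edgeR adjusted p = 0.398). Its central-to-portal ratio was 1.28 in fed 1 (95% exact interval 1.24 to 1.32) and between 1.00 and 1.03 in the other 3 libraries. In fasted libraries Slc22a28 made up 4.02% and 4.53% of both genes' UMIs in the central bin, against 2.96% and 2.35% in the portal bin. In fed libraries it made up 6.91% and 8.77% in the central bin, against 6.85% and 6.44% in the portal bin.

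Slc22a7 was the member that passed as lower in the central bin. Its central bin held 1.48 and 0.152 CPM in fasted libraries, against 7.31 and 5.92 CPM in fed libraries. Portal bins held 3.38 and 1.44 CPM in fasted libraries, against 25.4 and 15.6 CPM in fed libraries. The central bin was lower in 4 of 4 libraries, with a log2 difference of -1.66 (SE 0.26; edgeR adjusted p = 6.68e-05). Fasted 2 had a single UMI in its central bin and 8 in its portal bin.

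Slc22a5 did not pass, with 91.8 and 84.5 CPM in the central bin of fasted and 34.9 and 36.8 CPM in that of fed libraries. Its portal bins held 74.1 and 88.6 CPM in fasted libraries, against 17.8 and 36.1 CPM in fed libraries. The central-to-portal ratio was 1.96 in fed 1 (95% exact interval 1.51 to 2.56) and 0.954 in fasted 2 (0.843 to 1.08), and the log2 difference was 0.25 (SE 0.14, 4 libraries; edgeR adjusted p = 0.303). It passed with even-numbered landmarks alone (0.36, edgeR adjusted p = 0.00282), where 13.2% of all genes passed. Without fasted 2 the log2 difference was 0.46.

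**Figure D3:**
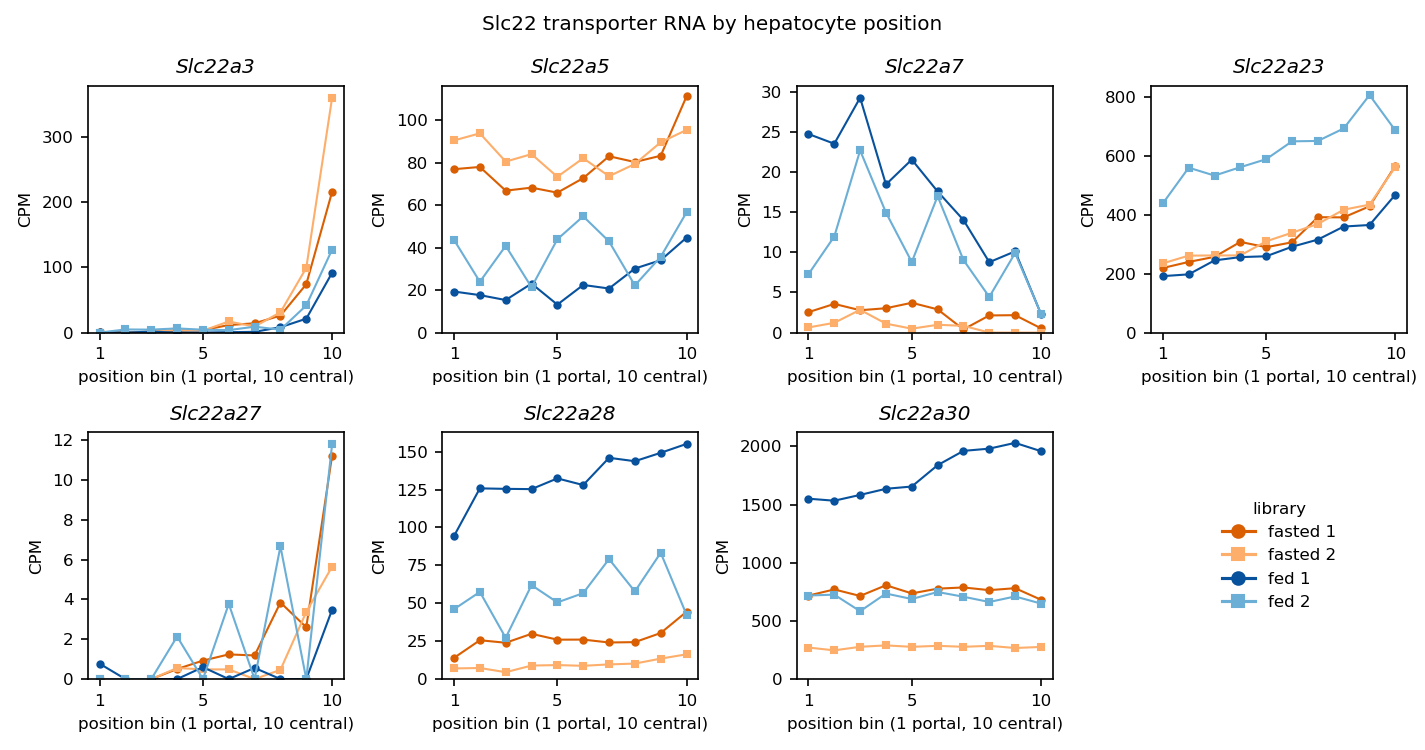
Level of each member (CPM, linear axis from 0, scales differ between panels) over 10 bins of equal size from portal (1) to central (10), 1 line per library. Slc22a3 and Slc22a27 are concentrated in the most central bins, Slc22a23 climbs along the axis, Slc22a7 declines toward the central end, and fasted and fed lines are apart for Slc22a5, Slc22a7 and Slc22a28 at nearly every bin.

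Fitted within each feeding state, Slc22a3, Slc22a23 and Slc22a28 passed for position in both. In fasted libraries 4 of the 6 members tested passed, Slc22a3, Slc22a23, Slc22a27 and Slc22a28 (14.5% of 11831 genes passed), and in fed libraries 4 of 6, Slc22a3, Slc22a7, Slc22a23 and Slc22a28 (9.06% of 10447). Slc22a7 in fasted and Slc22a27 in fed libraries had too few counts to be tested. The log2 position difference of Slc22a3 was 7.20 (SE 0.22) in fasted and 4.67 (SE 0.37) in fed libraries. Whether the position difference itself changed with feeding was tested by an interaction term, and 0 of 7 members passed it in edgeR, against 0.429% of 12358 genes. Slc22a3 and Slc22a5 had an unadjusted p under 0.05, as had 7.49% of all genes, and DESeq2 passed 0 members as well. The interaction estimate of Slc22a3 was 2.50 (SE 0.83; edgeR adjusted p = 0.302), and it passed without fasted 1 (3.65, edgeR adjusted p = 0.0437). That estimate rests on portal bins of 2 to 6 UMIs per library and was -0.08 with odd-numbered and 0.24 with even-numbered landmarks. For Slc22a5 it was -0.54 (SE 0.24; edgeR adjusted p = 0.634).

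Within the central bin alone, the log2 difference of fasted over fed was 1.26 (SE 0.40) for Slc22a3, 1.24 (SE 0.32) for Slc22a5, -2.31 (SE 0.57) for Slc22a28 and -3.03 (SE 0.93) for Slc22a7. In the portal bin Slc22a5, Slc22a28 and Slc22a7 stood at 1.55 (SE 0.47), -2.52 (SE 0.68) and -3.14 (SE 0.60). These 2 sets of values are close to those of all hepatocytes, and no member passed in either bin by edgeR, where 0.00838% of genes passed in the central bin and 0.00877% in the portal bin.

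**Figure D4:**
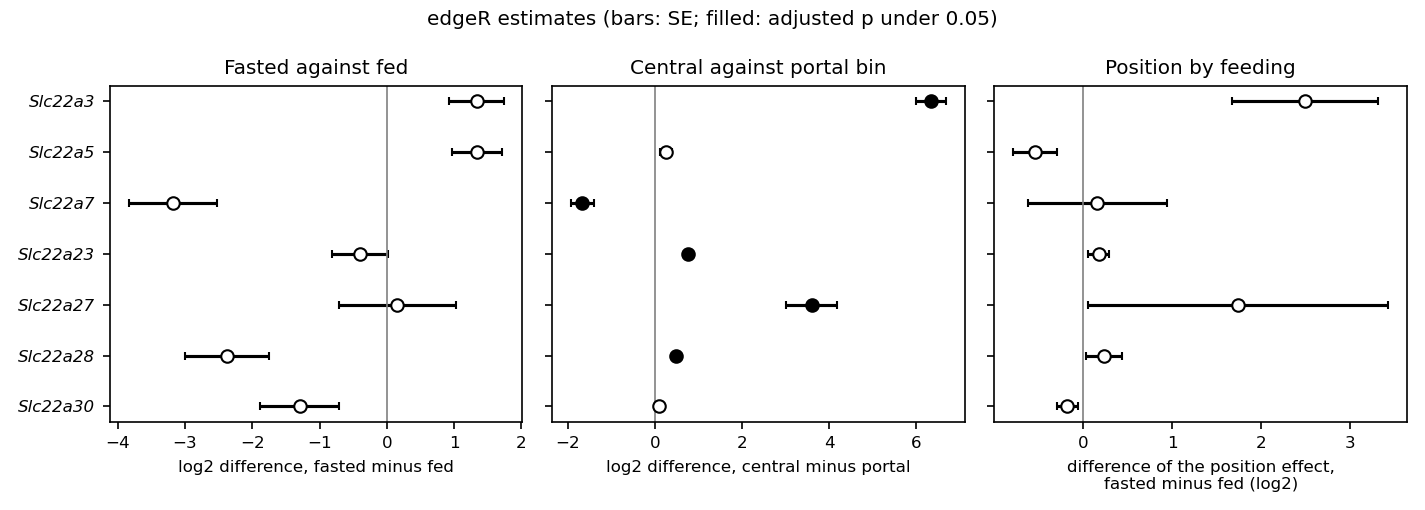
edgeR log2 estimates with SE (horizontal axes) for fasted minus fed in all hepatocytes, for central minus portal bin, and for the difference between the fasted and fed position effects, with filled points where the adjusted p is under 0.05. No point is filled for feeding or for the interaction, and 5 of 7 are filled for position.

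Levels outside hepatocytes have to be read against hepatocyte RNA that other nuclei carry. Hepatocyte markers, summed, stood at 29.5% to 89.1% of their hepatocyte level in endothelial, Kupffer or macrophage, stellate, cholangiocyte and T or NK nuclei. The 89.1% comes from the 5 T or NK nuclei of fed 2, and the next highest value was 74.9%. Slc22a30 stood at 35.1% to 86.3% of its hepatocyte level in endothelial nuclei, against 47.2% to 68.0% for the markers. In stellate nuclei it stood at 26.2% to 72.5%, against 29.5% to 54.1%. In fed 1 Slc22a30 was below the markers in each of these types, at 0.745 to 0.818 times their percentage. In fed 2 it was above them in each, at 1.27 to 1.56 times, the highest from 4 UMIs in T or NK nuclei. Slc22a23 was at 37.9% to 70.8% in endothelial nuclei and at 65.4% to 79.8% in Kupffer or macrophage nuclei, where the markers were at 52.0% to 74.2%. Slc22a3 was at or below 27.0% in endothelial nuclei of all 4 libraries. In Kupffer or macrophage nuclei Slc22a3 was at 57.7% and 32.2% in fasted libraries, against 59.0% and 184% in fed libraries, from 18, 10, 5 and 1 UMIs in fasted 1, fasted 2, fed 1 and fed 2. In stellate nuclei it was at 20.9% and 24.5% in fasted libraries, against 64.5% and 56.0% in fed libraries, from 6, 5, 5 and 1 UMIs. It was thus above the markers in Kupffer or macrophage and stellate nuclei of both fed libraries and below them in both fasted ones. Slc22a27 had 2 UMIs in endothelial nuclei and 0 in the other 4 named types, and Slc22a7 had at most 8 UMIs in any of these types in any library.

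Slc22a5 lay above the markers in cholangiocyte and stellate nuclei of all 4 libraries. In cholangiocyte nuclei it stood at 67.1 and 58.8 CPM in fasted libraries, against 26.2 and 46.9 CPM in fed libraries, which is 1.63, 2.24, 2.92 and 2.30 times the markers' percentage in fasted 1, fasted 2, fed 1 and fed 2. The fed 2 value is 1 UMI. In stellate nuclei the multiple was 1.54 to 2.03 over the 4 libraries. In endothelial nuclei it was 1.39, 1.43 and 2.66 in fasted 1, fasted 2 and fed 1, and 0.623 in fed 2 from 2 UMIs. In fasted libraries hepatocytes, at 78.4 and 83.7 CPM, were above endothelial nuclei, at 58.7 and 60.9 CPM, and above both cholangiocyte values. Cholangiocyte and endothelial levels overlapped in fasted libraries, and in fed libraries the levels of hepatocytes overlapped with those of both other types. Slc22a28 was also above the markers in stellate nuclei of all 4 libraries. Its multiples in fasted 1, fasted 2, fed 1 and fed 2 were 1.55, 1.69, 1.36 and 1.10, from 13, 2, 34 and 3 UMIs. Slc22a23 was above them in cholangiocyte nuclei of fasted 1, fasted 2 and fed 1 (1.15, 1.86 and 2.24 times). It was below them in fed 2 (0.443 times, 3 UMIs). In Kupffer or macrophage nuclei Slc22a23 was slightly above them in all 4 libraries. The multiples in fasted 1, fasted 2, fed 1 and fed 2 were 1.11, 1.08, 1.26 and 1.04, from 220, 177, 122 and 12 UMIs.

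**Figure D5:**
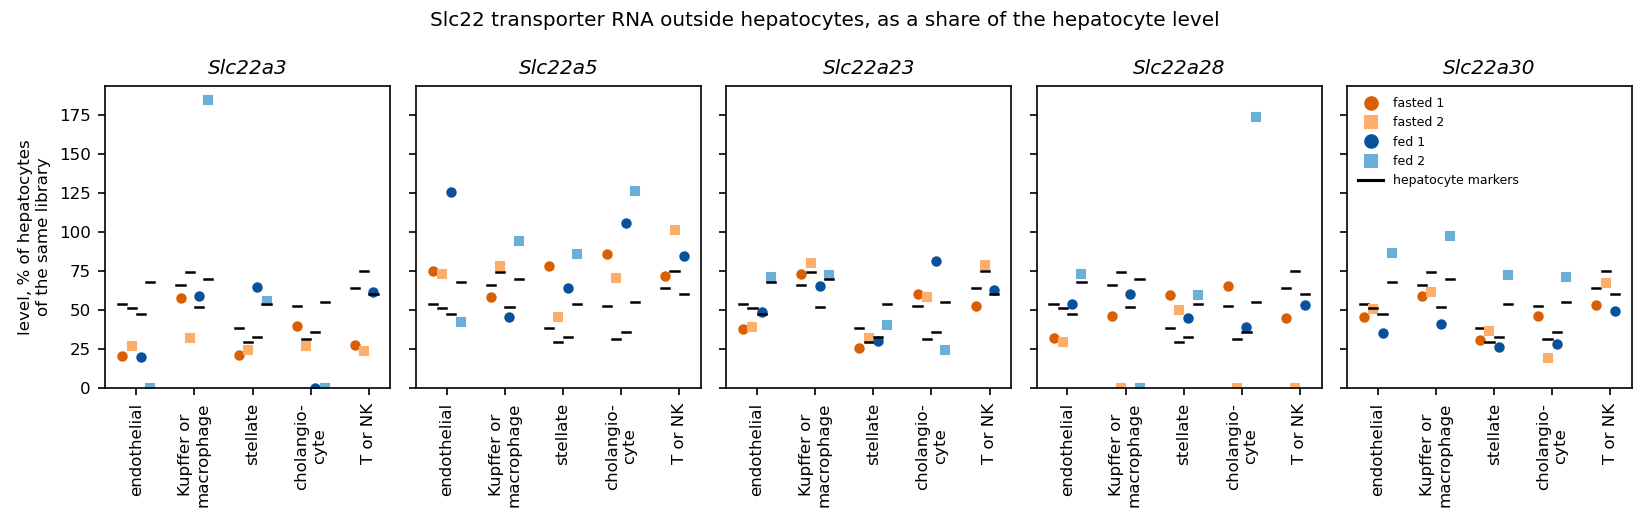
Level in other cell types as a percentage of the hepatocyte level of the same library (vertical axis), 1 point per library, for the 5 members with at least 90 UMIs outside hepatocytes. Black bars give the same percentage for the summed hepatocyte markers. Slc22a5 is above its bar in all cholangiocyte and stellate libraries, Slc22a28 in all stellate ones, and Slc22a23 slightly in all Kupffer or macrophage ones.

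Feeding was also tested in those types whose libraries each held 20 nuclei or more, and 0 members passed by edgeR in each. The share of all genes that passed was 0.139% in cholangiocytes (4 members tested), 0.0490% in endothelial nuclei (5 tested), 0.656% in Kupffer or macrophage nuclei (4 tested) and 0.0695% in stellate nuclei (4 tested). At an unadjusted p under 0.05 there were 1, 3, 2 and 2 members in that order, and 3.93%, 3.99%, 6.45% and 4.03% of all genes.

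In cholangiocytes the member with an unadjusted p under 0.05 was Slc22a30, at a log2 difference of -1.24 (SE 0.47), and Slc22a5 (1.16), Slc22a23 (-0.051) and Slc22a28 (-2.34) were the others tested. In Kupffer or macrophage nuclei these were Slc22a5 (2.17, SE 0.80) and Slc22a30 (-1.07, SE 0.42), beside Slc22a3 (0.95) and Slc22a23 (0.18). In stellate nuclei they were Slc22a28 (-2.11, SE 0.67) and Slc22a30 (-1.54, SE 0.41), beside Slc22a5 (1.38) and Slc22a23 (-0.54). In endothelial nuclei they were Slc22a5 (1.13, SE 0.49), Slc22a28 and Slc22a30 (-1.38, SE 0.42), beside Slc22a3 (1.97) and Slc22a23 (-0.99). The remaining members had too few counts to be tested. All edgeR adjusted p of these 17 tests lay between 0.146 and 0.99975.

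In endothelial nuclei Slc22a28 stood at 8.64 and 2.81 CPM in fasted libraries, against 71.9 and 39.5 CPM in fed libraries. These are 19 and 3 UMIs in fasted and 132 and 5 UMIs in fed libraries, so fasted 2 and fed 2 rest on few molecules. The log2 difference was -3.28 (SE 0.61, n = 2 and 2), with an edgeR adjusted p of 0.146 and a DESeq2 adjusted p of 0.0489, where 0.196% of genes passed. It was -4.36 without fasted 1 (edgeR adjusted p = 0.04996) and -3.48 without fed 2 (edgeR adjusted p = 2.71e-06). Omitting fasted 2 gave -2.77 and omitting fed 1 gave -2.71, with edgeR adjusted p of 0.723 and 0.357. Slc22a30 passed without fed 1 (-1.41, edgeR adjusted p = 0.0470) and without fed 2 (-1.34, edgeR adjusted p = 0.0370), and Slc22a23 without fed 1 (-1.68, edgeR adjusted p = 0.0180). The share of all genes that passed was 0.181% without fasted 1, 1.0% without fed 1 and 0.965% without fed 2. In other types Slc22a30 passed in stellate nuclei without fed 1 (-1.70, edgeR adjusted p = 0.0168), and Slc22a28 in Kupffer or macrophage nuclei without fasted 1 (edgeR adjusted p = 0.0175), with 0 UMIs in fasted 2 and fed 2 and 50 in fed 1. Endothelial nuclei fell into 2 clusters that split by feeding state, one with 2198 and 933 nuclei of fasted libraries, against 191 and 32 of fed libraries, and one with 112 and 35 of fasted libraries, against 1813 and 106 of fed libraries. Hepatocyte markers in endothelial nuclei were at 54.0% and 51.0% of the hepatocyte level in fasted and 47.2% and 68.0% in fed libraries, and their part in this value was not tested.

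Of 18 further Slc22a symbols, 7 had enough counts to be tested in hepatocytes. Of these, 6 had a positive and 1 a negative log2 difference between fasted and fed, with a median of 0.72 against -0.01 over all 14130 genes, and 0 passed in edgeR or DESeq2, with 0 at an unadjusted p under 0.05 in edgeR. Slc22a15 stood at 20.6 and 35.8 CPM in fasted libraries, against 11.996 and 17.6 CPM in fed libraries. Slc22a4, which encodes OCTN1, a transporter of the thiol ergothioneine, stood at 26.6 and 26.9 CPM in fasted libraries, against 9.35 and 22.0 CPM in fed libraries. By position 4 of the 7 passed as higher in the central bin (8.21% of all genes) and none as higher in the portal bin, among them Slc22a22 (1.95), Slc22a4 (0.83) and Slc22a18 (0.37) on the log2 scale.

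A broad list of genes around carnitine, the substrate of OCTN2, also held Acacb, Mlycd, Shmt1 and Shmt2, which are not carnitine genes in the narrow sense. Their log2 differences were 0.67, 0.60, 0.31 and -0.18. The whole list had a median log2 difference of 0.59, with 12 of 15 tested genes positive, against 6966 of 14130 genes overall. None passed in edgeR, with 2 at an unadjusted p under 0.05 (6.91% of all genes), and DESeq2 passed 1 (1.17% of all genes), Crat, the carnitine acetyltransferase. Crat stood at 22.7 and 53.0 CPM in fasted libraries, against 4.12 and 7.34 CPM in fed libraries (log2 difference 2.71, DESeq2 adjusted p = 0.00137). Slc25a20, which carries acylcarnitines into mitochondria, stood at 262 and 265 CPM in fasted libraries, against 153 and 109 CPM in fed libraries (edgeR adjusted p = 0.617). By position, 1 of 14 was higher in the central bin (8.21% of all genes), Bbox1, the last enzyme of carnitine synthesis. In the portal bin 4 were higher (8.23% of all genes). Among them were Cpt1a, which loads fatty acids onto carnitine, at a log2 difference of -0.23, and also Acacb and Shmt1.

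Other carriers of organic ions split evenly, with 11 of 22 higher and 11 lower in fasted hepatocytes and a median log2 difference of -0.05. In edgeR 0 passed, with 3 at an unadjusted p under 0.05 (6.91% of all genes). Slco1a1, an uptake transporter of organic anions, was passed by DESeq2 as lower, at 263 and 159 CPM in fasted libraries, against 841 and 456 CPM in fed libraries (DESeq2 adjusted p = 0.0329). Slco1a4 of the same family stood at 539 and 604 CPM in fasted libraries, against 111 and 268 CPM in fed libraries (edgeR adjusted p = 0.617). By position 11 of 22 were higher in the central and 3 in the portal bin, as were 8.21% and 8.23% of all genes. Among 22 transcription factors and receptors, 10 had a positive and 12 a negative feeding difference, with a median of -0.08, 0 that passed in edgeR and 3 at an unadjusted p under 0.05 (6.91% of all genes). Onecut1, the factor HNF6, was passed by DESeq2 as lower, at 59.5 and 66.3 CPM in fasted libraries, against 581 and 114 CPM in fed libraries (DESeq2 adjusted p = 0.00904), and Nr1i3, the receptor CAR, stood at 723 and 468 CPM in fasted libraries, against 217 and 226 CPM in fed libraries (edgeR adjusted p = 0.533).

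Across the 12 hepatocyte sums of 4 libraries by 3 bins, the members formed patterns that can be described by correlation of log2(CPM + 1). These sums share libraries and depth, so the values are descriptions. Slc22a28 and Slc22a30 correlated at 0.94, Slc22a3 and Slc22a27 at 0.85, and Slc22a5 and Slc22a7 at -0.92. Among 6045 genes with a mean of at least 20 CPM, the 3 most like Slc22a3 were Robo1 (0.96), the pericentral landmark Slc1a2 (0.95) and Rcan2 (0.95). Among those most like Slc22a7 were Stard4 (0.98), a cholesterol carrier, and Bbs9 (0.98). Those most like Slc22a28 were Cyp2c70 (0.98), which makes muricholic acids, Slco1a1 (0.98) and the steroid dehydrogenase Hsd3b5 (0.98), and those most like Slc22a30 were Rfx7 (0.99), C4b (0.98) and Rbm25 (0.98). Slc22a5 was most like Nr2f2 (0.98), Gstt2 (0.97) and Pde4d (0.97), Slc22a23 most like Slc23a2 (0.96), Ube2h (0.96) and Abcc2 (0.96), and Slc22a27 most like Wwtr1 (0.95), Blvrb (0.93) and Robo1 (0.91).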

How the data were processed

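The deposited matrices hold UMI counts per gene and barcode, made by the authors with Cell Ranger 6.0 on mm10, per the submitters' processing notes. Whether introns were counted, and the annotation, are not given in the sources used here. Of the stored entries 13.2% to 17.0% were 0. The sources used here do not explain these zeros, so a correction of the counts before deposit is possible. There were 0 unmapped value columns.

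Barcodes under 500 genes or above 5% mitochondrial UMIs were dropped. Doublets were scored with Scrublet and removed at 0.8% per 1000 barcodes. This left 10150 and 6609 nuclei in fasted and 8819 and 4146 in fed libraries. Leiden clustering (scanpy 1.11.5, 2000 variable genes, 30 components, resolution 1, no Slc22a gene) gave 17 clusters, named by marker lists (at least 3 markers in 10% of nuclei). A T or NK cell cluster, with the B cell gene Ebf1 among its leading genes, had 5 nuclei in fed 2 and was not tested. A cluster of 186 nuclei led by mitochondrial genes stayed unnamed.

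Counts summed per library were tested in edgeR 4.0.16 (TMM, filterByExpr, robust quasi-likelihood F test, R 4.3.3) over all genes, with DESeq2 1.42.0 as the alternative. SE is the log2 difference over the root of F. Position scores used counts thinned to 1500 UMIs. Data were simulated for the hepatocyte feeding comparison (13553 genes tested) with dispersion 0.05 for every gene, and only genes with enough counts were changed. Of genes changed by 1, 2 and 4 on the log2 scale, 19.4%, 95.5% and 100% were recovered. Real spread is not held to this value, so these shares do not tell how often real changes of that size are found. A missing call is therefore not evidence of no change. All members with enough counts are named in each comparison, and for each list those with the smallest unadjusted p. Other genes were named where DESeq2 or the position test passed them. The members and lists were chosen with earlier results of these data known. Intervals and floors (3 counts for a count of 0) cover counting error only. Some genes that the naming rules select are not reported here.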

Additional observations from a re-analysis of the deposited data

How the results depend on the processing

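Of 273 log2 differences of members recomputed under an alternative, 238 kept their direction and side of the threshold, 23 passed it only under the alternative, 0 lost a call and 12 reversed. Genes called for feeding in hepatocytes numbered 1, against 166 with DESeq2, 279 with no low-count filter, 0 with stored zeros counted as 1, 0 in the middle bin alone and 3 to 840 without each library in turn. Members called numbered 0, against 2 with DESeq2, 2 with no filter and 0 to 4 without each library. Interaction calls were 53 genes, against 2 with DESeq2, 112 and 33 with odd and even landmarks and 5 to 123 without each library, with 0 to 1 members. Endothelial calls were 5 genes, against 20 with DESeq2, 42 with no filter and 6 to 111 without each library, with 0 members, against 1, 1 and 0 to 2. Kupffer or macrophage calls were 52 genes, against 4 with DESeq2 and 0 to 51 without each library, with 1 member with no filter and 0 to 1 without each library. Stellate calls were 5 genes, against 12 with DESeq2, 20 with no filter and 9 to 72 without each library, with 0 to 1 members. Cholangiocyte calls were 6 genes, against 1 with DESeq2 and 6 to 12 without each library. Position calls of members stayed at 5 to 6 in every alternative. The causes were not tested.

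The replicate block, for libraries with the same number, gave 115 genes and 2 members (Slc22a7 and Slc22a28) in hepatocytes, 202 genes and 2 members in endothelial, 145 genes in Kupffer or macrophage and 36 genes and 1 member in stellate nuclei. Deviations of same-numbered libraries correlated at 0.549 over 14130 genes, but with 2 pairs the numbers do not establish pairing.

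Reversed were the interaction of Slc22a3 with odd landmarks (-0.0779) and that of Slc22a7 with DESeq2 (-0.0851) and even landmarks (-0.77). Without each library in turn the interaction ran from -1.39 to 0.52 for Slc22a7, -0.89 to 0.0878 for Slc22a5, -0.0311 to 0.37 for Slc22a23 and -0.37 to 0.0191 for Slc22a30. Feeding ran from -0.60 to 1.38 for Slc22a27 and -0.84 to 0.24 for Slc22a23, and the position of Slc22a30 from -0.0036 to 0.13. In runs that leave 1 library in a group, that library is assumed to vary like the other group. Depth limits Slc22a27 most: its interval in fed 1 runs from 0.323 to 1.16 CPM.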

Other observations

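Hepatocyte clusters gave a view of the members that does not use the position score. Slc22a3 reached 191 CPM in fasted 1 and 338 CPM in fasted 2 in the cluster that also had Glul and Slc1a2 among its leading genes, against 89.9 CPM in the corresponding Glul cluster of fed 1. In a cluster of fasted 1 led by periportal genes such as Sds and Cyp2f2 it was at 0.898 CPM, and in the main cluster of fed 1 it was at 1.71 CPM. Slc22a27 followed the same clusters at a far lower level, with 9.18 and 4.67 CPM in fasted 1 and 2, against 3.93 CPM in fed 1. In these Glul clusters Slc22a7 had 1 UMI in fasted 1 (0.296 CPM), 0 in fasted 2 and 9 in fed 1 (4.42 CPM), which are few molecules. In the periportal cluster of fasted 1 it was at 3.59 CPM, from 28 UMIs.

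A cluster of fed 1 led by the acute-phase genes Saa1, Saa2 and Saa3 held 744 nuclei in all libraries. There Slc22a30 was at 1987 CPM and Slc22a28 at 127 CPM, close to the fed 1 levels over all hepatocytes of 1775 and 134 CPM. These clusters are mostly made of 1 library, and no test was run on them.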
